A study of Mus musculus with 24 samples.

Results

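The comparison described here asked where deletion of Dicer1 in microglia acted alike, and where it acted differently, during cuprizone demyelination and after recovery. For each gene the difference Cre+ minus Cre- was measured in demyelination and in remyelination with tamoxifen at the peak (peak remyelination), and the first was subtracted from the second. This difference of differences was chosen by its labels alone and used 12 of the 24 libraries, 3 in each of 4 groups. A value above 0 means that the genotype effect was more positive in remyelination, and a value below 0 that it was more negative there.

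All 4 groups were microglia from mouse brain, sorted by flow cytometry as CD45int CD11b+ cells. Cre+ mice carried the tamoxifen-activated recombinase creERT2 at the Cx3cr1 locus and are labelled as Dicer1 KO, and Cre- mice are labelled WT. Demyelination groups had 6 weeks of cuprizone, a copper chelator that kills oligodendrocytes, with tamoxifen labelled as given at the start and, in the series text, at 4 to 5 weeks. Remyelination groups had 6 weeks of cuprizone and then 6 weeks of normal diet, with tamoxifen at the peak, in week 5 of cuprizone. State of the tissue, timing of tamoxifen and time from tamoxifen to collection therefore changed together, and their parts cannot be told apart. By the stated weeks that time was longer in remyelination, which added 6 weeks of normal diet. Total counts also differed between the states, as given below. Cre+ mice also carry a recombinase in place of part of a Cx3cr1 allele, so the genotype effect holds both the deletion and that change. Recombinase driven from this locus is also known to act in border macrophages and other Cx3cr1-expressing myeloid cells. Ages of the mice and pooling are not stated in the labels, and the series text calls the 3 samples of each group biological replicates.

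Dicer1 encodes the ribonuclease that cuts precursor hairpins into mature microRNAs, which in turn lower the stability and translation of messenger RNAs with matching sites. Microglia that meet myelin debris take up its lipids, enlarge their lysosomes and switch on a set of genes known as the disease-associated programme, which recedes as myelin is rebuilt. Microglia also divide during cuprizone feeding and largely stop once the damage has resolved.

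Total counts were 21865238 to 32708382 in the demyelination libraries and 8940567 to 12092415 in the remyelination libraries. The sum of 20 homeostatic microglial markers lay between 73600 and 97010 CPM (counts relative to library size, scaled by TMM) in all 12 libraries, and none of the 20 was at 0 in any group. In bulk RNA, fewer cells of a type and less RNA per cell cannot be told apart.

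Dicer1 itself (chromosome 12, 104687742 to 104751952, GRCm38) measured 23.1, 22.7 and 15.2 CPM in Cre- and 11.6, 15.7 and 17.5 CPM in Cre+ libraries of demyelination. In peak remyelination it measured 34.1, 34.0 and 30.6 CPM in Cre- and 31.6, 30.5 and 32.4 CPM in Cre+. The groups overlapped in both states, and neither genotype effect passed the test (log2 -0.45 with an adjusted p of 0.0922, and log2 -0.064 with an adjusted p of 0.850). Counts over the whole gene do not resolve the deleted segment, so they do not show how much of it was removed.

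Cx3cr1, the fractalkine receptor gene that carries the recombinase, measured 5277, 5318 and 6139 CPM in Cre- and 104, 2312 and 89.6 CPM in Cre+ libraries of demyelination. In peak remyelination it measured 7228, 6882 and 9098 CPM in Cre- and 3742, 3585 and 3651 CPM in Cre+. Cre+ libraries were thus below Cre- in both states, and demyelination Cre+ replicates 1 and 3 stood far below replicate 2. Neither genotype effect passed the test (log2 -2.74 with an adjusted p of 0.105, and log2 -1.08 with an adjusted p of 0.526). One naive Cre+ library outside this comparison was as low, and each result below was also computed without these 3 libraries, which leaves 1 demyelination Cre+ library. In those fits the spread comes from the other groups, and the lone library is assumed to vary like them.

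Of 17579 genes tested, 120 (0.683%) had a genotype effect that differed between the states at an adjusted p of 0.05 in edgeR's quasi-likelihood test. The effect was more positive in remyelination for 43 of them (0.245% of the genes tested) and more negative for 77 (0.438%). Within demyelination 1612 genes passed (9.17%), 1001 of them higher (5.69%) and 611 lower (3.48%) in Cre+. Within peak remyelination 1935 passed (11.0%), 1228 higher (6.99%) and 707 lower (4.02%). The mean of both genotype effects passed for 3157 genes (18.0%), 1841 higher (10.5%) and 1316 lower (7.49%). The difference between the states was thus detected for far fewer genes than either genotype effect. At an unadjusted p below 0.05 the difference counted 2571 genes.

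Of 2968 genes that passed in either state, 579 passed in both, and same-sign effects were the larger class among these 579. In both states 427 genes were higher (2.43% of the genes tested) and 142 lower (0.808%) in Cre+. These 569 genes were 35.3% of those that passed in demyelination and 29.41% of those that passed in peak remyelination, and the difference between the states did not pass for 561 of them. The other 8 were higher in both states and more so in remyelination. A difference that did not pass does not show equal effects: in simulated counts, 68% of known differences of log2 1 passed. Only 10 genes (0.0569%) passed in both states with opposite signs, and all 10 also passed the test of the difference. Across the 17579 genes the effects in the states had a Pearson correlation of 0.317, given as a description, since genes are not independent replicates. The states have separate Cre- libraries.

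**Figure D1:**
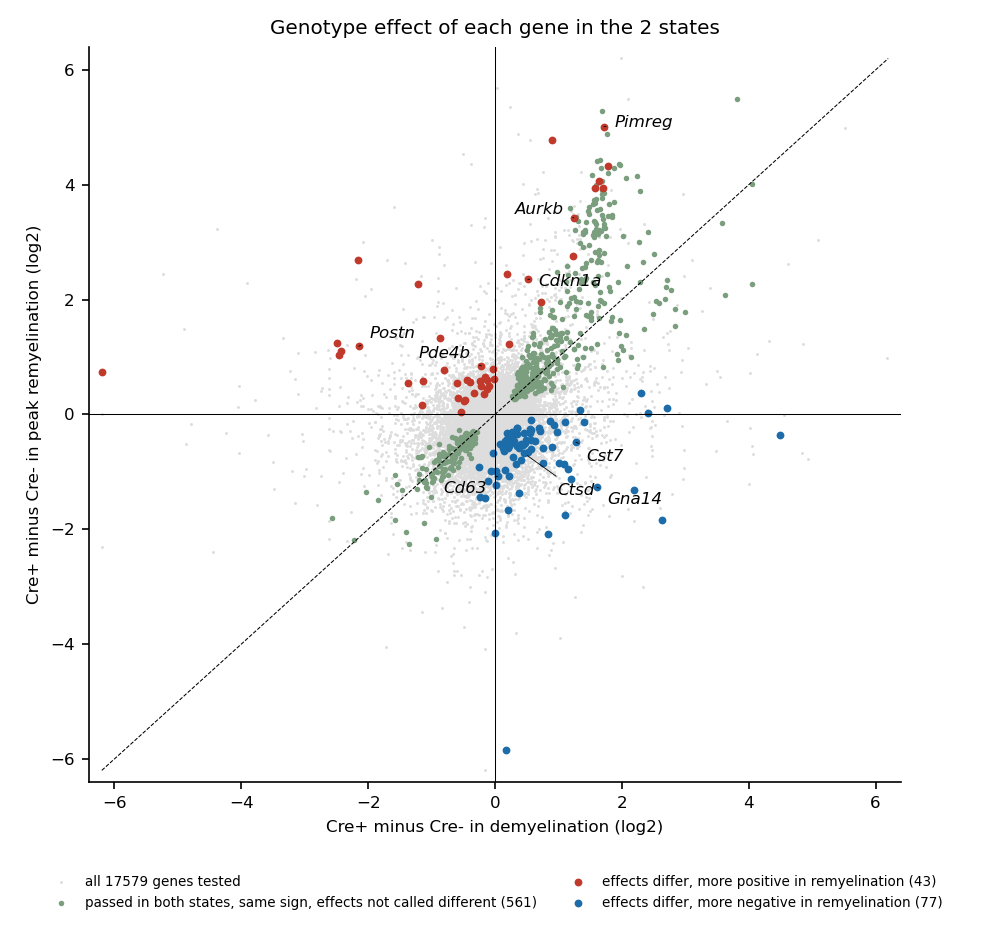
Cre+ minus Cre- (log2) of each gene in demyelination (x axis) and in peak remyelination (y axis), from 3 libraries per group, with the line of equal effects dashed and points beyond the axes drawn at their edge. The 43 red genes lie above the line and the 77 blue genes below it, while the 561 green genes, which passed in both states with the same sign, include the dividing-cell genes at the upper right.

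The 77 genes with a more negative effect fell into 3 main forms. There were 30 that passed as higher in Cre+ in demyelination alone, 39 that passed as lower in Cre+ in remyelination alone, and 7 that passed in both, higher and then lower. One passed in neither state. Among the 43 genes with a more positive effect, 12 passed as lower in demyelination alone, 20 as higher in remyelination alone, 8 as higher in both, and 3 as lower and then higher.

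Promoter sequences of some genes with a more negative or a more positive effect are shown because their motifs can be read beside the values that follow. They are the 250 bases before the RefSeq start site (GRCm38.p6), written 5′ to 3′ on the gene's strand. For the protease genes Ctsd (chr7:142387828-142388077, minus strand) and Dpp7 (chr2:25356333-25356582, minus strand), capitals mark CACGTG, the palindromic core of the element bound by the lysosomal regulator TFEB and its relatives. For the mitotic genes Cdk1 (chr10:69352913-69353162, minus strand) and Ccnb2 (chr9:70421555-70421804, minus strand), capitals mark TTTGAA, known as the cell cycle genes homology region, and CCAAT, the box bound by NF-Y, in either orientation.
Ctsd: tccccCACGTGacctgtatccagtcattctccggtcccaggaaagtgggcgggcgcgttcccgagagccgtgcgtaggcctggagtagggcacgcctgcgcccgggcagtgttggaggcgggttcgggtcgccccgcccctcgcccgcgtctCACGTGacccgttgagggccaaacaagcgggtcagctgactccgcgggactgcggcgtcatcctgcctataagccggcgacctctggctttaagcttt
Dpp7: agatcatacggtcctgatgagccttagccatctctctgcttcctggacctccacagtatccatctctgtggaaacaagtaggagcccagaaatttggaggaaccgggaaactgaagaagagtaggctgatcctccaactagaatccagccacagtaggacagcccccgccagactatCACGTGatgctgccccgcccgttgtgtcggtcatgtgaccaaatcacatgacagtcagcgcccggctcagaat
Cdk1: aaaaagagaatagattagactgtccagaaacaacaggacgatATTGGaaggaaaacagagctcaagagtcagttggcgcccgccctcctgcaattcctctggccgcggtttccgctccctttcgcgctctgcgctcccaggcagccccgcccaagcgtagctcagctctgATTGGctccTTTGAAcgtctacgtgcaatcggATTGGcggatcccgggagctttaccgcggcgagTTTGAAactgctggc
Ccnb2: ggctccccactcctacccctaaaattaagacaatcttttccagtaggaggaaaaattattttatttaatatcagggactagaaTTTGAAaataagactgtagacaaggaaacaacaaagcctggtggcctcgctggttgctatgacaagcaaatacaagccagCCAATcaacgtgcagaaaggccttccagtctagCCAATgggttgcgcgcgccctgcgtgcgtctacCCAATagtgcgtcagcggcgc

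CACGTG occurred in the promoters of 10 of 25 lysosomal list genes with a RefSeq promoter (40.0%), beside 9.49% of the 11436 tested genes with one. Among all genes with a more negative effect in remyelination it occurred in 8 of 53 (15.1%) and among those with a more positive effect in 5 of 29 (17.2%), and the windows of Cd63 and Pld3 held none. CCAAT occurred in 17 of 20 mitotic list genes (85.0%, beside 40.0% of tested genes) and TTTGAA in 8 of 20 (40.0%, beside 13.2%). Neither motif was in the window of Birc5. Both strands were searched, the searches were chosen after the expression values were seen, and a match is a description of letters.

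Of 25 disease-associated genes tested, 5 had a more negative genotype effect in remyelination (Ctsd, Cd63, Ctsb, Cst7 and Tyrobp) and none a more positive one, and the median difference was -0.49 beside 0.019 over all genes. In demyelination 4 rose and 1 fell in Cre+, with a median of 0.12 (all genes -0.011). In peak remyelination none rose and 8 fell, with a median of -0.37 (all genes -0.0053). The direction of these medians was the same with RLE and with upper quartile scaling. Without the 3 low-Cx3cr1 libraries 3 of the 25 kept a more negative effect, and no member passed within demyelination.

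Ctsd, the aspartic protease cathepsin D of the lysosome (chromosome 7, 142375911 to 142388038), had the smallest p of all genes. It measured 24560, 25680 and 22070 CPM in Cre- and 34200, 31570 and 33330 CPM in Cre+ libraries of demyelination. It measured 11350, 11650 and 12840 CPM in Cre- and 8336, 6877 and 7249 CPM in Cre+ libraries of remyelination. All 3 Cre+ libraries were above Cre- in damage and all 3 were below after recovery, and the groups did not overlap. Over all genes tested, groups did not overlap for 31.8% in demyelination and 26.4% in peak remyelination, so lack of overlap alone is common. The genotype effect was 0.45 ± 0.09 (log2 ± SE, adjusted p 0.00315) in demyelination and -0.67 ± 0.09 (adjusted p 3.12e-05) in remyelination, and the difference was -1.13 ± 0.13 (adjusted p 7.83e-05). This call held in each of the 12 fits that left out 1 library, and without the low-Cx3cr1 libraries (adjusted p 0.000826).

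Ctsb, the cysteine protease cathepsin B, measured 14390, 14420 and 12020 CPM in Cre- and 15000, 15680 and 14500 CPM in Cre+ libraries of demyelination. Remyelination libraries held 3813, 4222 and 4421 CPM in Cre- and 2853, 2481 and 2632 CPM in Cre+. The groups did not overlap in either state and changed order, but in demyelination the nearest values were 14420 CPM in Cre- and 14500 CPM in Cre+. Its effect was 0.15 ± 0.10 in demyelination, which did not pass (adjusted p 0.412), and -0.65 ± 0.10 in remyelination (adjusted p 0.000118). The difference was -0.79 ± 0.14 (adjusted p 0.0087).

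Cd63, a tetraspanin of late endosomes and lysosomes, measured 2800, 2685 and 2085 CPM in Cre- and 2516, 2840 and 2453 CPM in Cre+ libraries of demyelination, where the groups overlapped. After recovery it measured 363, 388 and 385 CPM in Cre- and 204, 165 and 169 CPM in Cre+, and the groups were apart. The effects were 0.04 (adjusted p 0.871) and -1.08 (3.67e-06), with a difference of -1.12 ± 0.17 (adjusted p 0.00134). Like Ctsd and Ctsb, it passed in each of the 12 fits without 1 library and without the low-Cx3cr1 libraries.

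Cst7, which encodes cystatin F, an inhibitor of lysosomal cysteine proteases, differed mainly in damage. Its values were 1093, 1136 and 743 CPM in Cre- and 2797, 1968 and 2434 CPM in Cre+ libraries of demyelination, and 20.5, 24.4 and 18.7 CPM against 13.1, 13.8 and 18.7 CPM after recovery. The groups were apart in damage and overlapped after recovery, when the gene was low in both genotypes. The effect was 1.28 ± 0.21 (adjusted p 0.00144) and then -0.48 ± 0.24 (adjusted p 0.226), with a difference of -1.76 ± 0.32 (adjusted p 0.0185).

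Tyrobp, which encodes the adaptor DAP12 that signals for Trem2, measured 3876, 3930 and 3352 CPM in Cre- and 4622, 4820 and 4311 CPM in Cre+ libraries of demyelination. Remyelination libraries held 1220, 1397 and 1425 CPM in Cre- and 1104, 886 and 953 CPM in Cre+, so the order of the groups was reversed without overlap. The difference was -0.76 ± 0.16 (adjusted p 0.0283), but Tyrobp was not among the genes that passed in both states with opposite signs. Trem2 itself did not pass (difference -0.28, adjusted p 0.272). The calls of Cst7 and Tyrobp ended without the low-Cx3cr1 libraries (differences -1.54 and -0.89). They held in 8 and 6 of the 12 fits without 1 library, with the largest adjusted p without peak Cre- replicate 2 (0.0743 and 0.0946).

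Other members of the programme moved alike in both states or did not pass. Apoe, the main lipid carrier of the brain, fell in Cre+ in both (log2 -0.69 and -0.91), and its difference was -0.22 (adjusted p 0.774). Clec7a and Itgax, surface receptors of the programme, fell in remyelination (log2 -0.91 and -0.84), and their differences did not pass (adjusted p 0.0570 and 0.277). Spp1, Lpl and Gpnmb passed in neither state.

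Of 34 lysosomal genes tested, 4 had a more negative effect in remyelination, among them Ctsd, Cd63 and Ctsb, and none a more positive one, with a median difference of -0.18. In demyelination 9 rose and 2 fell (median 0.11), and in remyelination 2 rose and 6 fell (median -0.12). Without the low-Cx3cr1 libraries 3 differences passed, and none of the 34 passed within demyelination. The list summed to 105400 to 118800 CPM in demyelination Cre- libraries, below the 127100 to 132500 CPM of Cre+. After recovery Cre- libraries held 52460 to 62570 CPM, above the 45970 to 48720 CPM of Cre+. Ctsd, whose values are given above, is in these sums and made up a large part of the gap between genotypes in each state.

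Some lysosomal genes shared their effect between the states. Arsb and Gusb, hydrolases of glycosaminoglycans, rose in Cre+ in both (log2 0.67 and 0.58 for Arsb, 0.77 and 0.46 for Gusb). Psap, the precursor of the saposins that activate sphingolipid hydrolases, fell in both (log2 -0.41 and -0.48). Their differences were -0.09, -0.31 and -0.06 and did not pass.

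Further lysosomal genes outside the list were named after their values were seen. Dpp7, a dipeptidyl peptidase, measured 213, 219 and 173 CPM in Cre- and 283, 218 and 255 CPM in Cre+ libraries of demyelination, and 77.3, 82.8 and 80.4 CPM against 52.7, 37.0 and 42.8 CPM after recovery. Its groups overlapped in damage and were far apart after recovery, with a difference of -1.19 ± 0.18 (adjusted p 0.00134). Pld3, a lysosomal exonuclease, differed by -0.75 ± 0.14 (adjusted p 0.0139). Galns, a sulfatase, differed by -0.99 ± 0.22 (adjusted p 0.0318), from 0.87 in demyelination to -0.12 in remyelination. Dpp7 passed in all 12 fits without 1 library. Pld3 failed in 1 of them, without demyelination Cre- replicate 3 (adjusted p 0.0620), and Galns in 7, the largest adjusted p being 0.116 without peak Cre- replicate 2. Galns was also lost with limma voom, and without the low-Cx3cr1 libraries its difference was -0.61 (0.266).

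**Figure D2:**
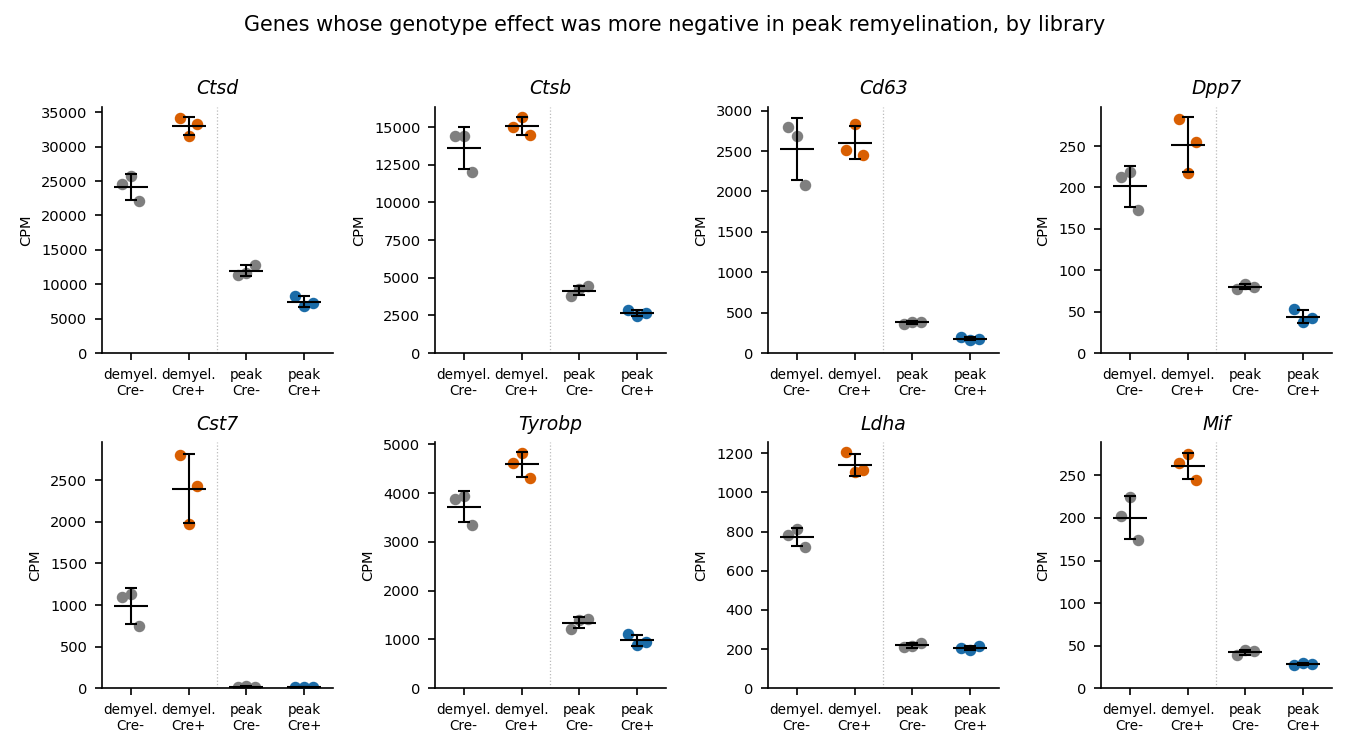
CPM (TMM scaled, linear axes from 0) of 8 genes in each library, with 3 points per group and the group mean and SD in black. Ctsd and Tyrobp are above Cre- in demyelination Cre+ libraries and below Cre- in peak remyelination, Cd63 overlaps in demyelination and separates in remyelination, and Cst7 and Ldha separate in demyelination and overlap in remyelination.

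Beside Ctsd, 5 opposite genes expressed well enough for the naming rule were higher in Cre+ in damage and lower after recovery. Galc, the hydrolase of the myelin lipid galactosylceramide, measured 72.4, 68.6 and 56.8 CPM in Cre- and 96.2, 75.0 and 81.3 CPM in Cre+ libraries of demyelination. It measured 74.0, 69.1 and 78.0 CPM in Cre- and 61.0, 59.1 and 54.1 CPM in Cre+ after recovery. The Cre+ values crossed from above to below without overlap, and the effects were 0.35 and -0.34 (difference -0.70 ± 0.15, adjusted p 0.0280).

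Scd2, a stearoyl-CoA desaturase that makes monounsaturated fatty acids, measured 232, 244 and 208 CPM in Cre- and 334, 315 and 307 CPM in Cre+ libraries of demyelination. After recovery it measured 196, 236 and 204 CPM in Cre- and 145, 173 and 147 CPM in Cre+. It crossed in the same way (0.48 and -0.45, difference -0.94 ± 0.18, adjusted p 0.0167). Mr1, which presents vitamin B metabolites to T cells, differed by -0.65 ± 0.12 (0.31 and -0.35). Gsto1, a glutathione transferase, differed by -0.98 ± 0.21 (0.47 and -0.51), and Efr3b, a plasma membrane scaffold for a phosphatidylinositol kinase, by -1.61 ± 0.35 (0.75 and -0.85). Without the low-Cx3cr1 libraries Scd2 and Mr1 passed (adjusted p 0.0422 and 0.0486), and Galc, Gsto1 and Efr3b did not (0.162, 0.115 and 0.159). Galc and Scd2 also failed without demyelination Cre- replicate 3 (0.0914 and 0.0688), Mr1 without peak Cre+ replicate 3 (0.0514), and Gsto1 and Efr3b without peak Cre- replicate 2 (0.118 and 0.109). Of the 12 fits without 1 library, Mr1 passed in 11, Scd2 in 9, Gsto1 in 6, Efr3b in 5 and Galc in 4.

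Of 20 glycolytic and hypoxia genes tested, 9 rose and 1 fell in demyelination (median 0.32), none rose and 5 fell in remyelination (median -0.20), and 2, Ldha and Mif, passed the test of the difference (list median -0.44). Without demyelination Cre+ replicate 1 the 9 became 3. Ldha, lactate dehydrogenase A, measured 781, 814 and 722 CPM in Cre- and 1205, 1103 and 1114 CPM in Cre+ libraries of demyelination, and 209, 217 and 234 CPM against 203, 197 and 218 CPM after recovery. The groups were apart in damage and overlapped after recovery, with a difference of -0.65 ± 0.13 (adjusted p 0.0169).

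Mif, a secreted cytokine gene also induced by hypoxia, measured 202, 225 and 174 CPM in Cre- and 264, 275 and 245 CPM in Cre+ libraries of demyelination, and 39.1, 44.7 and 43.4 CPM against 26.8, 29.4 and 28.4 CPM after recovery. It changed order without overlap, by -0.97 ± 0.18 (adjusted p 0.0139), but was not among the genes that passed in both states with opposite signs. The 5 members that fell in remyelination included Vegfa, Pfkfb3 and Car9 (log2 -0.93, -0.85 and -0.95). Without demyelination Cre- replicate 3 neither Ldha nor Mif passed (adjusted p 0.0688 and 0.0576). Of the 12 fits without 1 library, Ldha passed in 9 and Mif in 11. Mif passed without the low-Cx3cr1 libraries, Ldha did not (0.0824), and no list member then passed within demyelination.

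The mitochondrial transcripts mt-Co1 and mt-Cytb, subunits of respiratory complexes IV and III, also had a more negative effect in remyelination (-0.89 ± 0.20 and -0.79 ± 0.18, adjusted p 0.0318 for both). They were named after their values were seen. Mitochondrial genes made up 0.730% to 0.819% of counts in Cre- and 0.896% to 0.916% in Cre+ libraries of demyelination, and 0.458% to 0.612% against 0.285% to 0.413% after recovery. This share moved with the genotype effect in each state, and its part in the results above was not tested. Both calls ended without the low-Cx3cr1 libraries (differences -0.87 and -0.90). Each held in only 4 of the 12 fits without 1 library. The largest adjusted p was 0.101 for mt-Co1, without demyelination Cre- replicate 3, and 0.116 for mt-Cytb, without peak Cre- replicate 2.

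All 24 mitotic genes tested rose in demyelination (median 1.61) and all 24 rose in remyelination (median 3.44). The difference passed for 4 of them, Aurkb, Cdk1, Ccnb2 and Birc5, with a list median of 1.78. That count depended on the fit: it was 21 with only the 12 libraries compared, 13 with DESeq2 and 0 with limma voom. It was also 0 without demyelination Cre- replicate 3, demyelination Cre+ replicate 3 or peak Cre- replicate 2, while the list median stayed between 1.69 and 1.87 in every setting. Within demyelination 14 of the 24 rose without demyelination Cre+ replicate 1, and all 24 rose in remyelination in every setting. The summed level of the list was 160, 172 and 186 CPM in Cre- and 557, 518 and 504 CPM in Cre+ libraries of demyelination. After recovery it was 43.4, 36.6 and 42.7 CPM in Cre- and 496, 396 and 439 CPM in Cre+. Cre- libraries were thus far lower after recovery than in damage, while the Cre+ libraries of the states were much closer to each other.

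Aurkb, the kinase of the chromosomal passenger complex, measured 7.02, 7.59 and 8.42 CPM in Cre- and 18.3, 18.1 and 18.1 CPM in Cre+ libraries of demyelination. Remyelination libraries held 1.61, 1.27 and 1.07 CPM in Cre- and 16.8, 11.4 and 14.2 CPM in Cre+. Groups were apart in both states, by 1.24 and 3.43 (difference 2.18 ± 0.44, adjusted p 0.0212). Birc5, survivin of the same complex, rose by 1.70 and 3.95 (difference 2.25 ± 0.51, adjusted p 0.0428).

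Cdk1, the kinase that drives entry into mitosis, measured 23.9, 23.4 and 21.8 CPM in Cre- and 59.0, 52.9 and 49.9 CPM in Cre+ libraries of demyelination, and 3.31, 1.91 and 3.05 CPM against 20.8, 15.2 and 19.2 CPM after recovery. Its difference was 1.53 ± 0.31 (adjusted p 0.0238), and that of its partner Ccnb2, cyclin B2, was 2.43 ± 0.54 (adjusted p 0.0391). Pimreg and Pbk, mitotic genes outside the list, differed by 3.30 ± 0.66 and 2.55 ± 0.59 (adjusted p 0.0239 and 0.0493).

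These genes were low in remyelination Cre- libraries, and the part of this in the calls was not tested. Of the 12 fits without 1 library, Aurkb passed in 9 and Cdk1 and Pimreg in 6, and some losses came without a demyelination library. Without peak Cre- replicate 2 the difference did not pass for Aurkb, Cdk1, Birc5, Ccnb2 or Pimreg (adjusted p 0.0829, 0.116, 0.116, 0.166 and 0.0743), and Pbk passed in none of the 12 fits that left out 1 library. Without the low-Cx3cr1 libraries 8 of the 24 list members passed, including Aurkb and Cdk1 (0.0422 and 0.0414), while Ccnb2 did not (0.0508).

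Of 24 DNA replication genes tested, 12 rose in demyelination (median 0.71) and 22 in remyelination (median 1.32), and 1, Mcm5 of the replicative helicase, passed the test of the difference (list median 0.61). The 12 became 4 without demyelination Cre+ replicate 1. Mcm5 measured 20.7, 24.1 and 25.6 CPM in Cre- and 40.5, 37.7 and 38.6 CPM in Cre+ libraries of demyelination, and 8.52, 8.54 and 8.07 CPM against 33.7, 27.9 and 35.6 CPM after recovery. Its Cre+ libraries were above Cre- without overlap in both states, with a difference of 1.22 ± 0.29 (adjusted p 0.0464). This call was lost in each of the 12 fits without 1 library, with adjusted p up to 0.146 without peak Cre- replicate 2.

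Among p53 targets, 4 of 20 rose in demyelination and 9 in remyelination, none fell, and Cdkn1a and Sesn1 passed the test of the difference. Cdkn1a encodes p21, an inhibitor of cyclin-dependent kinases. It measured 85.6, 93.8 and 76.4 CPM in Cre- and 142, 106 and 118 CPM in Cre+ libraries of demyelination, and 7.95, 9.88 and 10.5 CPM against 58.3, 42.5 and 45.0 CPM after recovery. The groups were apart in both states and farther after recovery, at 0.52 (adjusted p 0.143) and 2.35 (7.46e-06), with a difference of 1.84 ± 0.32 (0.0139). Only the fit without peak Cre- replicate 2 lost this call among the 12 (0.0510), and it passed without the low-Cx3cr1 libraries (0.00363).

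Sesn1, a stress-induced inhibitor of mTORC1 signalling, differed by 0.65 ± 0.15 (adjusted p 0.0443), and its call ended without peak Cre- replicate 2 (0.159) and without the low-Cx3cr1 libraries (0.0894). Other p53 targets had like effects in the states. Ccng1 (cyclin G1) rose by 0.51 and 0.58, Phlda3 by 1.51 and 1.65, and Perp by 2.69 and 2.01, and none of their differences passed.

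Pde4b, a cyclic AMP phosphodiesterase, had the smallest p among genes with a more positive effect. It measured 44.4, 45.2 and 45.8 CPM in Cre- and 42.0, 37.2 and 37.5 CPM in Cre+ libraries of demyelination. After recovery it measured 36.8, 34.2 and 32.5 CPM in Cre- and 60.0, 59.2 and 66.7 CPM in Cre+. Cre+ values lay just below Cre- in damage and well above after recovery. The effects were -0.21 (adjusted p 0.159) and 0.84 (3.93e-06), and the difference was 1.06 ± 0.13 (0.000179). It passed in all 12 fits without 1 library and without the low-Cx3cr1 libraries (0.00459). Pde8b, another phosphodiesterase, changed the opposite way (difference -1.11 ± 0.16, adjusted p 0.00134), from 0.15 to -0.96.

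Postn, the secreted matrix protein periostin, was lowered in damage and raised after recovery. It measured 270, 263 and 220 CPM in Cre- and 29.3, 99.7 and 41.0 CPM in Cre+ libraries of demyelination. After recovery it measured 13.1, 11.3 and 16.9 CPM in Cre- and 24.3, 36.3 and 33.2 CPM in Cre+. No group overlapped its counterpart, and the effects were -2.15 (adjusted p 0.000692) and 1.19 (0.0338), with a difference of 3.34 ± 0.46 (0.00269). Demyelination Cre+ replicates 1 and 3, both low in Cx3cr1, were the lowest of the demyelination libraries. The difference was 2.46 (adjusted p 6.66e-05) without the low-Cx3cr1 libraries.

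Ptafr, the receptor for platelet-activating factor, measured 101, 100.3 and 90.4 CPM in Cre- and 72.5, 77.3 and 66.0 CPM in Cre+ libraries of demyelination, and 106, 97.5 and 118 CPM against 122, 178 and 191 CPM after recovery. It crossed from below Cre- to above without overlap, by 1.04 ± 0.17 (adjusted p 0.00262). The call held in all 12 fits without 1 library and ended without the low-Cx3cr1 libraries (0.0802). Arhgef10l, a guanine nucleotide exchange factor, fell by 1.15 in demyelination and did not pass in remyelination (0.16), with a difference of 1.31 ± 0.27. Klf11, a Krüppel-like repressor, differed by 1.14 ± 0.27. Their calls ended without the low-Cx3cr1 libraries, where Arhgef10l's difference was 0.95. Arhgef10l's call held in 4 of the 12 fits without 1 library (adjusted p 0.0825 without peak Cre+ replicate 3). Klf11's was lost without peak Cre- replicate 2 (0.146), among other fits.

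**Figure D3:**
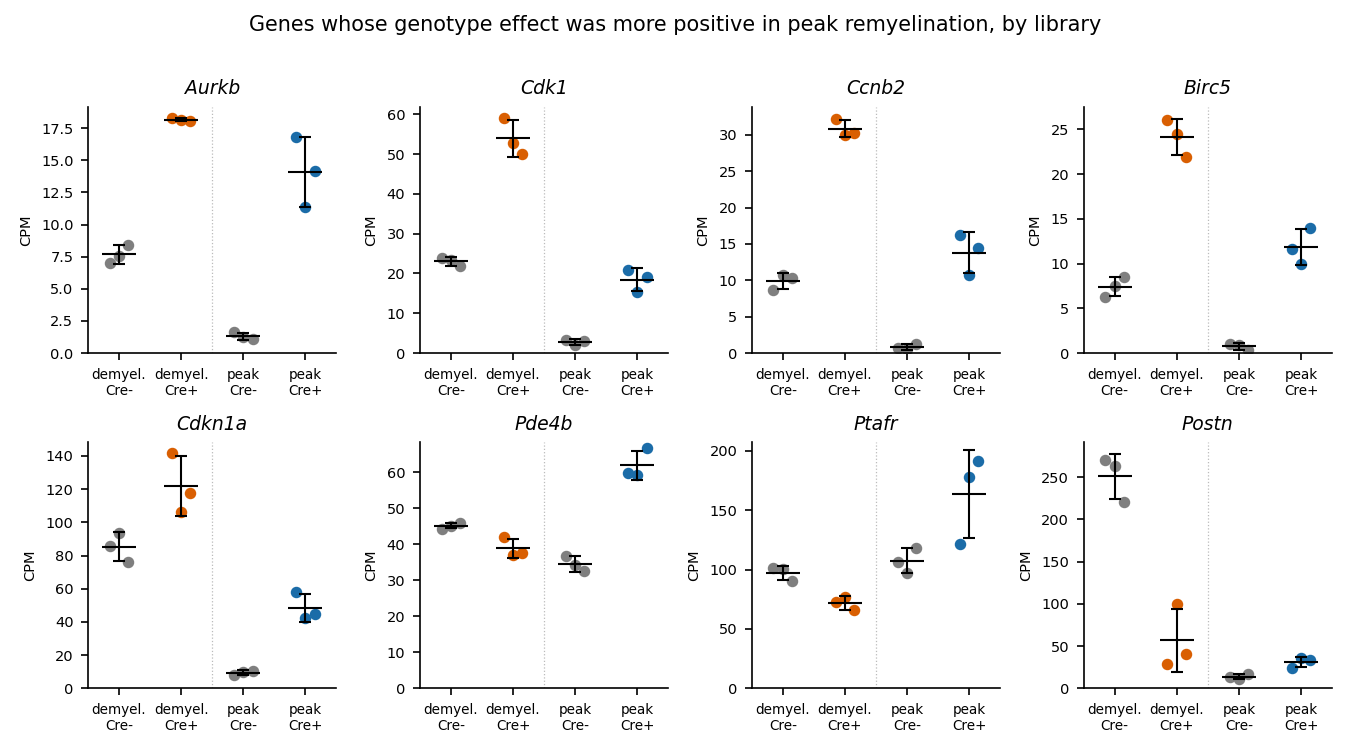
CPM (TMM scaled, linear axes from 0) of 8 genes in each library, with 3 points per group and the group mean and SD in black. Aurkb, Cdk1, Ccnb2 and Birc5 are above Cre- in the Cre+ libraries of both states and near 0 only in peak remyelination Cre- libraries, while Pde4b, Ptafr and Postn are below Cre- in demyelination and above it in remyelination.

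The remaining genes with the largest more negative differences had varied roles. Rxrg, the retinoid X receptor gamma, measured 12.3, 14.8 and 9.18 CPM in Cre- and 86.6, 21.3 and 56.4 CPM in Cre+ libraries of demyelination, and 5.78, 8.11 and 7.08 CPM against 3.56, 2.06 and 2.82 CPM after recovery. It was highest in demyelination Cre+ replicates 1 and 3, those low in Cx3cr1, and its difference was -3.51 ± 0.66 (adjusted p 0.0238) with all libraries and -2.20 (0.0984) without them. Lox (lysyl oxidase, -2.85 ± 0.60), Hspa12a (an HSP70-like protein, -1.95 ± 0.40) and Adcy3 (an adenylyl cyclase, -1.53 ± 0.26) shrank likewise to -1.80, -1.29 and -0.97 and did not pass without those libraries (0.235, 0.239 and 0.106).

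Gna14, a G protein alpha subunit, crossed from 1.61 to -1.27 (difference -2.88 ± 0.48, adjusted p 0.00462). It is a low gene, below the mean log2 CPM of 2 set by the naming rule, and was chosen after its values were seen. Gpr162 (an orphan receptor, -2.06 ± 0.46), Ptgfrn (a tetraspanin partner, -1.88 ± 0.39), Clec1a (a C-type lectin, -1.76 ± 0.39), Tnfsf8 (the CD30 ligand, -1.85 ± 0.39) and Tnni2 (a troponin, -1.47 ± 0.27) also differed. None of these 6 passed without the low-Cx3cr1 libraries (adjusted p 0.0677 to 0.152). Without peak Cre- replicate 2 the calls of Rxrg, Lox, Gpr162, Hspa12a, Ptgfrn and Clec1a were also lost (0.0882 to 0.146), as was that of Tnfsf8 without peak Cre+ replicate 3 (0.101). Of the 12 fits without 1 library, Lox and Clec1a passed in 4, Gpr162 in 5, Hspa12a and Ptgfrn in 6 and Rxrg in 7.

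Calls that held in all 12 fits without 1 library numbered 18 of the 120. Beside Ctsd, Ctsb, Cd63, Dpp7, Pde4b, Pde8b, Postn, Ptafr, Gna14, Adcy3 and Tnni2 they were Syngr1 (-0.83), Fblim1 (-1.19), Slamf9 (-1.03), Ctla2b (-1.10), Nme1 (-0.86), Prpf3 (0.73) and Gm34280 (0.87). Another 48 of the 120 held in at most 3 of the 12, among them Klf11, Sesn1, Plac8, Cspg4, Birc5, Ccnb2, Pbk, Mcm5 and Tnfsf8. No gene of the 120 changed sign in any fit. Without the low-Cx3cr1 libraries 27 of the 120 passed, among 49 genes in all.

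**Figure D4:**
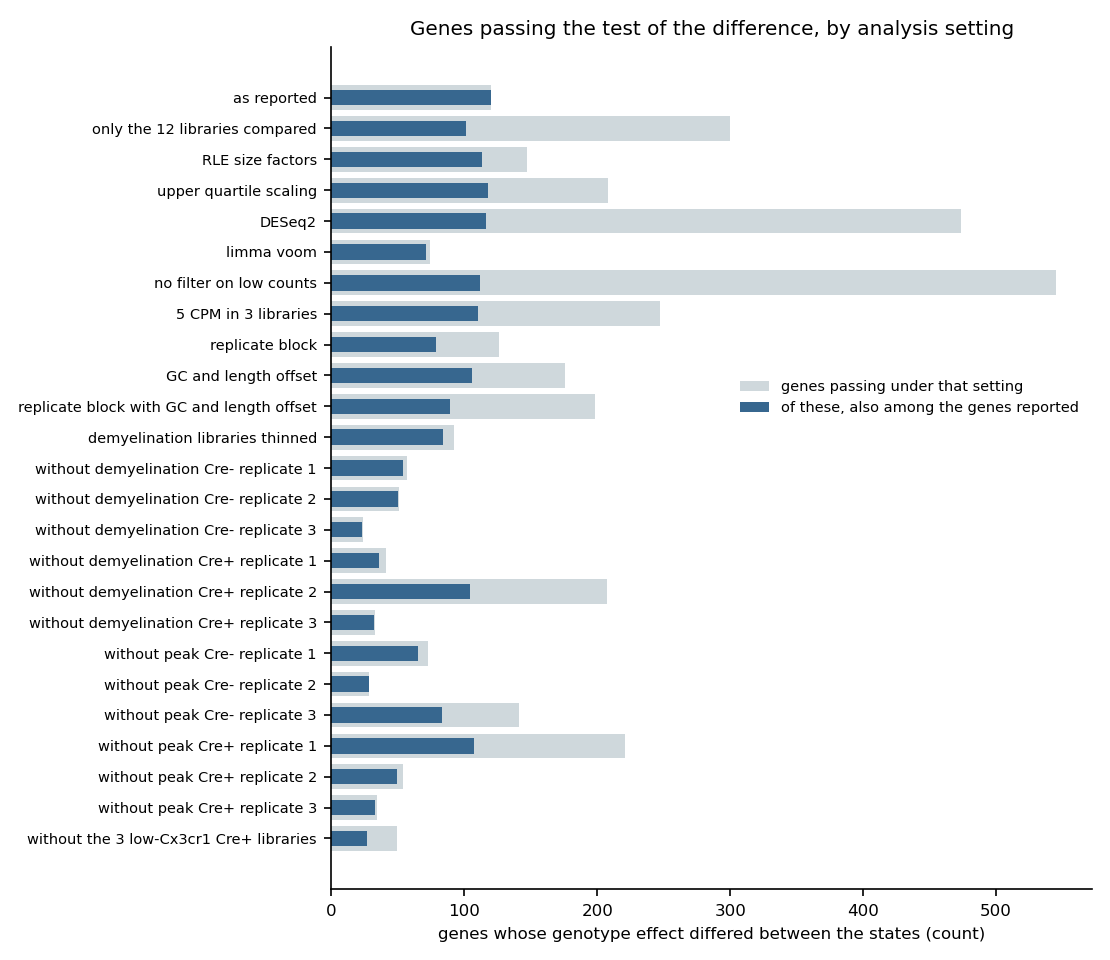
Genes passing the test of the difference (x axis, count) under each analysis setting, with all passing genes in grey and those among the 120 reported in blue. Leaving out 1 library gave 24 to 221 genes, and leaving out the 3 low-Cx3cr1 libraries gave 49, of which 27 were among the 120.

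Among marker genes of other cells only Plac8 and Cspg4 passed the test of the difference. Plac8, of the monocyte list, had a more positive effect in remyelination (3.48 ± 0.80, adjusted p 0.0464), at 8.50, 14.1 and 12.7 CPM in Cre- and 6.63, 3.54 and 4.91 CPM in Cre+ libraries of demyelination, and 1.33, 0.706 and 0.412 CPM against 2.28, 1.98 and 7.34 CPM after recovery. It was the only one of 10 monocyte markers to pass (list median 1.59), and its call ended without peak Cre- replicate 2 (0.166) and without the low-Cx3cr1 libraries (0.173). The monocyte markers summed to 300 to 440 CPM in demyelination Cre- libraries, to 531 to 822 CPM in Cre+ ones, and to 85.6 to 105 CPM against 110, 124 and 697 CPM after recovery. Within demyelination 1 marker rose and 3 fell. Peak Cre+ replicate 3 held the high value, and without it the list medians were 1.06 for the difference and -0.029 in remyelination, against 0.28 with it.

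The 10 neutrophil markers summed to 210 to 908 CPM in demyelination Cre- libraries, to 1343 to 1690 CPM in Cre+ ones, and to 175 to 284 CPM against 462, 443 and 5252 CPM after recovery. The highest library was again peak Cre+ replicate 3. None of the 10 passed the test of the difference (median 1.77), none passed in demyelination and 2 rose in remyelination. Without peak Cre+ replicate 3 the median difference of the list turned to -0.44, its remyelination median fell from 3.12 to 0.92 and none rose, so this library set the sign. In that fit the difference counted 34 genes in all, 33 of them among the 120. Their part in the results above was not tested. No marker of either list was at 0 in all 3 libraries of any group.

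Cspg4, a proteoglycan of pericytes and oligodendrocyte precursors, was the only one of 9 mural and one of 7 precursor markers to pass (-2.10 ± 0.46, adjusted p 0.0407). It measured 37.8, 46.9 and 33.4 CPM in Cre- and 109, 63.2 and 89.1 CPM in Cre+ libraries of demyelination, and 6.34, 5.93 and 3.46 CPM against 2.01, 2.58 and 3.57 CPM after recovery. The 9 mural markers summed to 52.4 to 69.2 CPM in demyelination Cre- libraries, to 85.0 to 130 CPM in Cre+ ones, and to 30.4 to 82.6 CPM against 12.6 to 38.5 CPM after recovery. Cspg4 is one of the 9 and made up 109, 63.2 and 89.1 of the 130, 85.0 and 116 CPM in demyelination Cre+ libraries. The higher sum there is thus largely that of Cspg4, and the list median in demyelination was 0.057. In remyelination 4 mural markers fell, among them Rgs5, Vtn and Pdgfrb, and none without peak Cre- replicate 2. No mural marker was at 0 in all 3 libraries of a group, and their part in the more negative effects was not tested. The call of Cspg4 ended without the low-Cx3cr1 libraries (0.218) and without peak Cre- replicate 2 (0.150).

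For MHC class II, 5 of 10 genes fell and 2 rose in demyelination, and none rose and 2 fell in remyelination. H2-Aa, an alpha chain that binds antigen, measured 481, 497 and 511 CPM in Cre- and 157, 143 and 120 CPM in Cre+ libraries of demyelination, and 145, 127 and 218 CPM against 109, 118 and 150 CPM after recovery. It was lower in all Cre+ libraries of damage and overlapped after recovery, yet the difference of 1.45 ± 0.39 had an adjusted p of 0.0877, and that of Cd74, the invariant chain, was 1.19 ± 0.29 (0.0595). None of the 10 passed the test of the difference (median 0.55). With only the 12 libraries compared 4 were more positive and 1 more negative, with DESeq2 3 and 3, and with no filter on low counts 0 and 3, so neither the number nor its direction was stable.

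Among interferon response genes 8 of 30 rose in demyelination (median 0.25; 1 without demyelination Cre+ replicate 1), including Ifit1, Isg15 and Rsad2, and in remyelination none rose and 2 fell (median -0.080). None of the 30 differences passed (median -0.40), against 2 with DESeq2 and 5 with no filter on low counts. Of the microRNA machinery, 4 of 14 genes rose in remyelination (Ago2, Tnrc6a, Tnrc6b and Dgcr8), none passed in demyelination, and none of the differences passed (median 0.28).

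Of 13 heat shock genes tested, 6 rose in each state, 4 of them in both (Hspa1a, Hspa1b, Hspa5 and Hsp90aa1), none fell, the medians were 0.41 and 0.39, and no difference passed. Hspa1a, an inducible HSP70, measured 47.2, 60.2 and 77.2 CPM in Cre- and 280, 91.2 and 376 CPM in Cre+ libraries of demyelination, and 251, 235 and 259 CPM against 658, 442 and 528 CPM after recovery. Cre+ libraries were higher in both states without overlap, by 2.01 and 1.13, and replicates 1 and 3 again stood apart in demyelination. Hspa1a and Hspa1b are near-identical, so reads may be split between them. Without the low-Cx3cr1 libraries no heat shock, interferon, MHC class II or p53 list gene passed within demyelination.

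The 6 genes with the largest mean rise in both states were the dividing-cell genes Pimreg, Mki67, Ube2c, Pbk, Rrm2 and Ccnb2 (1.64 to 2.29 in demyelination, 3.88 to 5.01 in remyelination). Those with the largest mean fall were Adgre4, an adhesion receptor of macrophages (-2.04 and -1.35), Cd22, an inhibitory sialic acid receptor (-0.93 and -2.16), C1rl, Tnni3, Dnaaf3 and Slc14a1. Cd22 measured 114, 116 and 84.4 CPM in Cre- and 39.6, 76.1 and 49.2 CPM in Cre+ libraries of demyelination, and 27.0, 40.0 and 40.6 CPM against 10.4, 6.71 and 6.96 CPM after recovery. It was lower in every Cre+ library of both states, and its difference of -1.23 did not pass (adjusted p 0.190). Tnni3 and Dnaaf3 overlap on chromosome 7, so without strand their reads cannot be told apart.

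**Figure D5:**
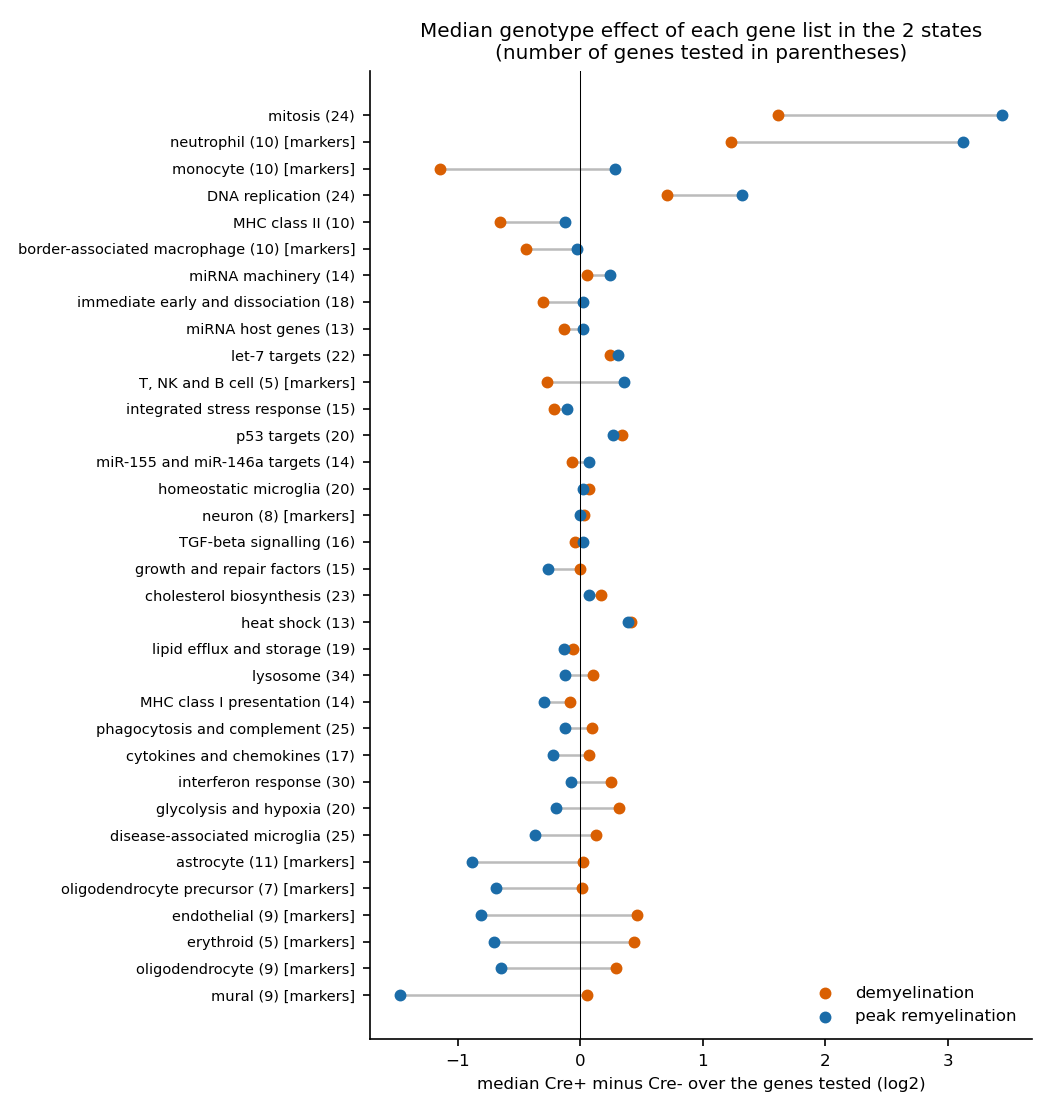
Median Cre+ minus Cre- (log2) over the tested genes of each of 34 lists, in demyelination (orange) and peak remyelination (blue), ordered by the median difference between the states. Mitosis lies at 1.61 and 3.44, heat shock at 0.41 and 0.39, and the disease-associated list moves from 0.12 to -0.37. Marker lists of other cells, such as neutrophil and mural, lie at both ends, and the neutrophil median difference is -0.44 without peak Cre+ replicate 3.

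MicroRNA sites are shown because Dicer1 makes the microRNAs that would read them. The mature sequences below (RefSeq) have the seed, bases 2 to 8, in capitals, and a site is the reverse complement of the seed in an annotated 3′ UTR.
let-7a-5p: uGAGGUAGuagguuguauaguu
miR-29a-3p: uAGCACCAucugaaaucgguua
miR-155-5p: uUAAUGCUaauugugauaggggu
miR-216a-5p, a control family: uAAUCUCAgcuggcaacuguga

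In remyelination the median genotype effect was 0.105 for the 1615 genes with a miR-29a-3p site and 0.046 for the 8319 without, and 0.086 against 0.053 for let-7a-5p. It was 0.077 against 0.054 for miR-155-5p and 0.076 against 0.053 for the control family. Other controls gave 0.055 against 0.056 (miR-133b-3p) and 0.082 against 0.056 (miR-208a-3p). These 3 controls were added after the reference was seen, since the planned ones were not in it. In demyelination the same medians were 0.003 against 0.006, 0.016 against 0.004, -0.006 against 0.007 and -0.012 against 0.008. The median difference between the states was positive with and without a site (0.122 and 0.050 for miR-29a-3p). Across the 10648 genes with a length, the difference correlated with transcript length (Spearman 0.251, a description across genes), so length moves with it. Among genes with a longer 3′ UTR the remyelination medians with and without a site were closer, at 0.085 and 0.076 for let-7a-5p, 0.104 and 0.067 for miR-29a-3p, 0.083 and 0.076 for miR-155-5p and 0.079 and 0.077 for miR-216a-5p. For let-7 targets chosen from the literature, 4 of 22 rose and 1 fell in demyelination, 5 rose in remyelination, and no difference passed.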

How the data were processed

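The authors deposited raw read counts per Ensembl gene for 24 libraries. Reads were trimmed with Trimmomatic 0.36, aligned with STAR 2.5.2b and counted with featureCounts of Subread 1.5.2 on GRCm38, with DESeq2 also named, per the submitters' processing notes. For strand and for reads with several alignments, the settings used are not given.

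Of 49315 genes, 49056 matched GENCODE M21. All 24 libraries were fitted as 8 group means in edgeR 4.0.16 (R 4.3.3; TMM, robust quasi-likelihood, 16 residual degrees of freedom), two-sided, with Benjamini-Hochberg adjustment over 17579 genes that passed edgeR's expression filter. Every adjusted p is from this test, except where a left-out library or another setting is named. Those come from that fit, adjusted over the genes tested in it. The fit was tested on simulated data. DESeq2 1.42.0, limma 3.58.1 (voom), other scalings, filters and left-out libraries were alternatives.

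Members, lists and rules were chosen with earlier results of these data known. Named genes were the 12 largest differences and 6 largest shared effects each way, up to 12 opposite genes, and up to 4 per list, at a mean log2 CPM of at least 2 (list members apart) and without sex-linked, erythroid or immunoglobulin genes. Others, including Gna14, Slamf9, Syngr1, Nme1, Fblim1, Pde8b, Ctla2b, Prpf3, Gm34280 and Dpp7, were chosen after their values were seen. The 34 lists hold 23 programmes and 11 marker sets. Not every gene that passed is reported here.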

Additional observations from a re-analysis of the deposited data

Results flagged for a closer look

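Each result here is a genotype effect that differed between the states in the test of the difference itself (edgeR quasi-likelihood, Benjamini-Hochberg adjusted p under 0.05). There are 51 named genes, 34 with a more negative and 17 with a more positive effect in peak remyelination. All values are log2 differences, remyelination minus demyelination.

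For lysosomal and disease-associated genes the differences were -1.13 for Ctsd, -0.79 for Ctsb, -1.12 for Cd63, -1.19 for Dpp7, -0.70 for Galc, -0.99 for Galns, -0.75 for Pld3, -1.76 for Cst7 and -0.76 for Tyrobp. For metabolic genes they were -0.65 for Ldha, -0.97 for Mif, -0.94 for Scd2, -0.98 for Gsto1, -0.86 for Nme1, -0.89 for mt-Co1 and -0.79 for mt-Cytb.

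Among receptors, signalling genes and others they were -3.51 for Rxrg, -2.88 for Gna14, -2.85 for Lox, -2.10 for Cspg4, -2.06 for Gpr162, -1.95 for Hspa12a, -1.88 for Ptgfrn, -1.85 for Tnfsf8, -1.76 for Clec1a, -1.61 for Efr3b, -1.53 for Adcy3, -1.47 for Tnni2, -1.19 for Fblim1, -1.11 for Pde8b, -1.10 for Ctla2b, -1.03 for Slamf9, -0.83 for Syngr1 and -0.65 for Mr1.

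Cell division genes differed by 3.30 (Pimreg), 2.55 (Pbk), 2.43 (Ccnb2), 2.25 (Birc5), 2.18 (Aurkb), 1.53 (Cdk1) and 1.22 (Mcm5), and the p53 targets by 1.84 (Cdkn1a) and 0.65 (Sesn1). The other positive differences were 3.48 for Plac8, 3.34 for Postn, 1.31 for Arhgef10l, 1.14 for Klf11, 1.06 for Pde4b, 1.04 for Ptafr, 0.87 for Gm34280 and 0.73 for Prpf3.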

How the results depend on the processing

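No gene among the 120 changed sign in any alternative fit. Over the other tools, scalings, filters, offsets, block, thinning and the fit of only the 12 libraries compared, 46 passed every time. That count leaves out the fits without 1 library, where 18 of the 120 held in all 12, and the fit without the low-Cx3cr1 libraries. The number of genes whose effect differed was 300 with only the 12 libraries compared, 147 with RLE size factors, 208 with upper quartile scaling, 474 with DESeq2, 74 with limma voom, 545 with no filter on low counts and 247 with 5 CPM in 3 libraries. Genes with opposite effects numbered 21, 15, 22, 38, 7, 30 and 28 in the same order. More positive differences were 35.8% of the 120, 24.5% with RLE and 21.2% with upper quartile scaling, but 47.7% with the GC and length offset, 48.4% with the replicate block and 52.5% with both, so the excess of more negative genes depends on the setting. Higher genes were 62.1% of those passing in demyelination and 72.8% with RLE, and 63.5% in remyelination and 48.2% with upper quartile scaling.

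A replicate block gave 126 genes, 79 of them among the 120, and 198 with a GC content and length offset added to the replicate block. Cdkn1a, Aurkb, Mcm5, Pbk and Galns did not pass with the replicate block (adjusted p 0.0706, 0.0639, 0.0617, 0.0559 and 0.0712), nor did Rxrg, Lox, Gpr162, Tnfsf8, Cspg4, Klf11 and Plac8. Replicate numbers were not taken as pairs: same-numbered libraries correlated at 0.146, 0.294 and 0.076 in remyelination, each Cre+ library there best with its own number, and at 0.024, -0.023 and -0.028 in demyelination.

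Without the 3 low-Cx3cr1 libraries 49 genes differed, 81 passed in demyelination, 941 in the mean of both states, 75 were shared and 2 opposite. Leaving out 1 library gave 24 genes (without demyelination Cre- replicate 3) to 221 (without peak Cre+ replicate 1) for the difference and 422 (without demyelination Cre+ replicate 1) to 2165 (without demyelination Cre+ replicate 2) for demyelination. It gave 853 (without peak Cre- replicate 2) to 2117 (without peak Cre+ replicate 1) for remyelination, 206 to 812 shared genes and 3 to 17 opposite genes. The causes of these changes were not tested, apart from fewer samples or genes by construction. Remyelination libraries hold fewer counts, which limits low genes there: thinning the demyelination libraries to that depth gave 92 differing genes, 84 of them among the 120.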

Other observations

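Further lists held few or no genes whose effect differed, and the counts below are given without explanation. None of 20 homeostatic microglial genes passed the test of the difference (median -0.0061), while 2 rose and 1 fell in demyelination and 3 rose and 1 fell in remyelination. Among 25 phagocytosis and complement genes 1 passed, Tyrobp, which is also in the disease-associated list. No gene passed among 14 of MHC class I presentation (3 fell in remyelination), 17 cytokines and chemokines, 23 of cholesterol biosynthesis, 19 of lipid efflux and storage or 15 growth and repair factors. The same held for 16 genes of TGF-beta signalling, 14 targets of miR-155 and miR-146a, 13 microRNA host genes, 18 immediate early genes and 15 genes of the integrated stress response. Of the 23 cholesterol synthesis genes 2 rose in demyelination and 3 in remyelination, and none fell. Over all genes tested 5.69% and 6.99% rose and 3.48% and 4.02% fell, so these small counts are not read as a direction of the list.

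Markers of other cells gave medians of the difference of -0.86 for 11 astrocyte, -1.05 for 9 endothelial, -1.23 for 9 oligodendrocyte and -1.15 for 5 erythroid genes, and none of these passed. Astrocyte genes fell in 3 cases in remyelination. Border-associated macrophage markers had a median of 0.47 with none of 10 passing, and 2 of them fell in demyelination. The medians were -0.030 for 8 neuronal and 0.14 for 5 T, NK and B cell genes, with none passing.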
